A study of Mus musculus with 7 samples.

Results

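CXC chemokines are small secreted proteins, named for the single residue between their first pair of cysteines, that attract leukocytes along a gradient by binding G protein-coupled receptors. The probes of 9 of them (Cxcl1, Cxcl2, Cxcl5, Cxcl9, Cxcl10, Cxcl12, Cxcl13, Cxcl14 and Cxcl16) were followed over 7 arrays of mouse mammary glands kept in organ culture. Each of the 9 genes had 1 probe, found by matching the probe's accession to the mouse gene table of RefSeq, among 34967 gene probes and 13971 named genes. These genes were chosen with their values on these arrays known, so their levels and differences are descriptions and none of them was tested.

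All glands came from 4-week-old female mice and were kept in serum-free medium for a growth phase of 10 days with hydrocortisone and aldosterone at 1 µg/ml each and prolactin and insulin at 5 µg/ml each. Glands cultured for 24 days then spent a regression phase of 14 days with insulin alone. The 3 arrays of the study hold glands after 24 days from αERKO mice (deleted for Esr1, which encodes ERα), from βERKO mice (deleted for Esr2, which encodes ERβ) and from WT mice, each with RNA of 5 mice pooled. By the methods these glands received 7,12-dimethylbenz[a]anthracene (DMBA, a polycyclic aromatic hydrocarbon carcinogen) at 2 µg/ml for 24 h from day 3, but only the title of the WT array names it. The other 4 arrays hold WT glands without DMBA after 24 days and after 10 days, and BALB/c glands after 24 days without and with vitamin D5. The titles of the BALB/c arrays do not mention DMBA and give no dose for vitamin D5, and pooling is not stated for these 4 arrays. Mice of the study's 3 arrays were pretreated before dissection with EGF (25 ng) plus progesterone (1 mg) over 5 days. The labels of all 7 arrays name that regimen and also 1 µg estrogen with 1 mg progesterone for 9 days, and which of them applied to the other 4 arrays is not settled. The knockout mice were on a C57BL6/129SV background and the WT mice were C57/BL6, so that genotype and background cannot be told apart. The methods also state that αERKO glands without alveolar lesions gave no material for molecular work, although an αERKO array was deposited. By the paper, the WT and βERKO glands contained preneoplastic alveolar lesions induced by DMBA, and the αERKO glands did not. In comparisons of αERKO glands with either of these arrays, lesions and genotype thus cannot be told apart.

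Each group is 1 array, and no difference given here has a replicate check, an error between animals or a p-value. Values are log2 of the spot's intensity over the median gene probe of its array, so that 0 is the array's median. A spot was called good by the scanner software where it stood above background and was not flagged for another reason, such as an irregular shape. Between 68.4% and 74.2% of gene probes were good over the 7 arrays, and the median intensity lay between 39.1 and 53.0 over a median local background between 80 and 83. As a measure of probe noise, the SD between same-accession probes, that is, the SD within pairs of good probes for 1 transcript, is given beside each comparison. The Esr2 probe (GE1577274) was good on the array of βERKO glands, with a log2 level of 0.87, and in WT glands without DMBA at 24 days, at -0.55, and near background on the other 5 arrays, so the former is called the array labelled βERKO. The Esr1 probe (GE42492) was good in WT glands with DMBA, at -1.02, and in BALB/c glands with vitamin D5, at -0.74. It was near background on both knockout arrays, at -3.76 and -1.72, but also in WT glands without DMBA at 24 days (-3.96) and 10 days (-9.45) and in BALB/c glands (-2.74). Where these probes lie relative to the deleted exons is not given in the sources used here. The 10 luminal epithelial markers measured, such as Krt8 and Epcam, were good on all 7 arrays. In such bulk RNA, fewer cells of a type and less RNA per cell cannot be told apart.

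The family divides by receptor and by the cells it attracts. Cxcl1, Cxcl2 and Cxcl5 act through Cxcr2 on neutrophils and are induced through NF-κB by bacterial products and inflammatory cytokines. Cxcl9 and Cxcl10 act through Cxcr3 on activated T cells and natural killer cells and are induced by interferons. Cxcl12, made by stromal cells, acts through Cxcr4 and is scavenged by Ackr3, while Cxcl13 attracts B cells through Cxcr5. Cxcl14 is made by many epithelia, and Cxcl16 is made as a membrane-bound protein that binds Cxcr6. In the mammary gland, chemokines of epithelium and stroma are known for recruiting leukocytes during involution and around tumours.

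Of the 9 genes, 6 lie on chromosome 5 in the gene order of RefSeq's mouse table (GRCm38.p6). Cxcl5, Ppbp, Pf4, Cxcl3, Cxcl15, Cxcl1 and Cxcl2 follow each other there with 0 other protein-coding genes between neighbours. After 16 other protein-coding genes comes Cxcl9, after 1 more Cxcl10, and after another 41 Cxcl13. Cxcl12 lies on chromosome 6, Cxcl16 on chromosome 11 and Cxcl14 on chromosome 13.

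The promoters of Cxcl1 and Cxcl2, which were high and low on the same arrays, are shown with those of the interferon-induced pair Cxcl9 and Cxcl10, which differed on the αERKO array. Each is the 250 bases before the start of the gene in RefSeq (GRCm38.p6), written 5′ to 3′ on the strand of the gene, and sequences were found for 7 of the 9 genes. Capitals mark matches to GGAANTTCC, a core of the NF-κB element that reads alike on both strands, and to GAAANNGAA, a core of the interferon response element.
Cxcl1 (chr5:90890995-90891244, plus strand): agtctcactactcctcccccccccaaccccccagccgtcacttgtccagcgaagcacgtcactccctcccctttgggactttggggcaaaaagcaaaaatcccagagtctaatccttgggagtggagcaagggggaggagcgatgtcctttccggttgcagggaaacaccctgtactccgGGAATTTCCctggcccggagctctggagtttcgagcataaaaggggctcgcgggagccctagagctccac
Cxcl2 (chr5:90903649-90903898, plus strand): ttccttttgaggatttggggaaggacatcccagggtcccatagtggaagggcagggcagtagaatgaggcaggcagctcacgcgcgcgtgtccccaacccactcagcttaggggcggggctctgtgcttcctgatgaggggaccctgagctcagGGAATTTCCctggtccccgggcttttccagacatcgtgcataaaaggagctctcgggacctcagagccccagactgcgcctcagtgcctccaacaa
Cxcl9 (chr5:92328080-92328329, minus strand): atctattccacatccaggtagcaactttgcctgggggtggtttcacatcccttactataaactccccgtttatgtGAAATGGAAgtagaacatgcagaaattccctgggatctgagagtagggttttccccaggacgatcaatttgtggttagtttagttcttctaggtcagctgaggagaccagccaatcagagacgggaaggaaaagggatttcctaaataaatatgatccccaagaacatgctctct
Cxcl10 (chr5:92348890-92349139, minus strand): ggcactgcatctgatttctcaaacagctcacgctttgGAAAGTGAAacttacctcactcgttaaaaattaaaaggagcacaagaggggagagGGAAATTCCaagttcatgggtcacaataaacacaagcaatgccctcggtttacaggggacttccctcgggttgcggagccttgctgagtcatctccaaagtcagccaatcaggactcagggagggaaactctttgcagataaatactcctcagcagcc
Both strands of each window were searched, no match overlapped a match to another motif, and the motifs and their length were chosen after the sequences and matches were seen. GGAANTTCC was found in 0.813% of 32851 promoters of this length, among them those of Cxcl1 (first base 70 before the start), Cxcl2 (96 before) and Cxcl10 (158 before), and also in that of Cxcl3 (72 before). No match was found for Cxcl5, whose levels also followed those of Cxcl1, and it may be among the genes without a sequence. GAAANNGAA was found in 7.13% of promoters, among them those of Cxcl9 (175 before), Cxcl10 (213 before) and Cxcl14 (172 before). With 1 more A at its end, the latter would no longer match in Cxcl9. The AP-1 element TGANTCA, in 6.75% of promoters, was found in Cxcl10 (74 before), and the STAT element TTCNNNGAA, in 7.02%, in Cxcl14 (191 before). A match is a description of the letters and not of a site in use.

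The neutrophil attractants Cxcl1, Cxcl2 and Cxcl5 were lowest of all 7 arrays in αERKO glands and next lowest in WT glands with DMBA. The log2 level of Cxcl1 (GE34525) was 0.10 in αERKO glands, 7.11 on the array labelled βERKO, 3.49 in WT glands with DMBA, 5.12 in WT glands without DMBA at 24 days, 6.70 at 10 days, 6.03 in BALB/c glands and 7.19 in BALB/c glands with vitamin D5. Its probe was good on all 7 arrays, and its range of 7.09 was wider than that of 99.8% of the probes good on all 7. The order from the top was BALB/c with vitamin D5, the array labelled βERKO, WT at 10 days, BALB/c, WT at 24 days, WT with DMBA and αERKO. Its places have no spread between arrays to set them against.

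Cxcl2 (GE118349) had log2 levels of 4.06 on the array labelled βERKO, 1.20 in WT glands with DMBA, 2.95 in WT glands at 24 days, 3.30 at 10 days, 2.70 in BALB/c glands and 3.23 with vitamin D5, and was near background, at -1.21, on the αERKO array. The 4 arrays outside the study thus lay within a narrow band, with the array labelled βERKO above it and the WT array with DMBA below. Cxcl5 (GE33629) had log2 levels of 3.64 on the array labelled βERKO, 0.34 in WT glands with DMBA, 2.45 in WT glands at 24 days, 4.07 at 10 days, 3.13 in BALB/c glands and 4.61 with vitamin D5. On the αERKO array it was near background, at -4.26. Over the 7 arrays Pearson's r between log2 levels was 0.98 for Cxcl1 and Cxcl2, 0.99 for Cxcl1 and Cxcl5 and 0.97 for Cxcl2 and Cxcl5, and over the 6 arrays other than αERKO it was 0.91, 0.97 and 0.85. These are descriptions over arrays that differ in strain, time and treatment, and whether the probes of these related genes bind each other's RNA was not tested.

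The interferon-induced Cxcl9 and Cxcl10 parted on the αERKO array. Cxcl9 (GE34022), with 4.10, was highest there, against 0.84 on the array labelled βERKO and -0.04 in WT glands with DMBA. It was good, at -1.35, in WT glands at 10 days, and near background in WT glands at 24 days without DMBA (-1.53), in BALB/c glands (-2.67) and with vitamin D5 (-1.84). Cxcl10 (GE37868) had log2 levels of 0.33 in αERKO glands, 2.39 on the array labelled βERKO and 1.65 in WT glands with DMBA. It stood at 0.38 in WT glands without DMBA at 24 days, -0.69 at 10 days and -1.15 in BALB/c glands with vitamin D5, and was near background, at -1.46, in BALB/c glands. Outside the αERKO array, both genes were thus higher in the study's glands than on the 4 other arrays, and only Cxcl9 was high in αERKO glands. Their r was 0.52 over the 7 arrays and 0.95 over the 6 arrays other than αERKO.

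The stromal chemokine Cxcl12 (GE38204) was good on all 7 arrays, with log2 levels of 2.89 in αERKO glands, 0.63 on the array labelled βERKO and 1.61 in WT glands with DMBA. On the other arrays it was close to the array median, with -0.18 and -0.37 in WT glands at 24 and 10 days and -0.05 and 0.05 in BALB/c glands without and with vitamin D5. These last 4 values have no clear order. The B cell attractant Cxcl13 (GE37313) had log2 levels of 2.79 in αERKO glands, 0.31 on the array labelled βERKO, 0.31 in WT glands with DMBA, -1.33 in WT glands at 10 days and -0.77 in BALB/c glands with vitamin D5. It was near background in WT glands without DMBA at 24 days (-2.68) and in BALB/c glands (-3.99).

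Cxcl14 (GE37451) varied least, with log2 levels of 1.00 in αERKO glands, 0.33 on the array labelled βERKO, 0.19 in WT glands with DMBA, 0.38 and 0.80 in WT glands at 24 and 10 days, 0.62 in BALB/c glands and -0.47 with vitamin D5. Its range of 1.47 was wider than that of 73.5% of the probes good on all 7 arrays, whose median range was 0.97. Cxcl16 (GE41765) had log2 levels of 2.19 in αERKO glands, 3.87 on the array labelled βERKO, 3.24 in WT glands with DMBA, 4.74 and 4.16 in WT glands at 24 and 10 days, 2.93 in BALB/c glands and 3.56 with vitamin D5. Its range was 2.55, wider than for 92.3% of those probes, and αERKO glands were lowest. Cxcl12, with a range of 3.26, passed 96.1% of them.

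**Figure D1:**
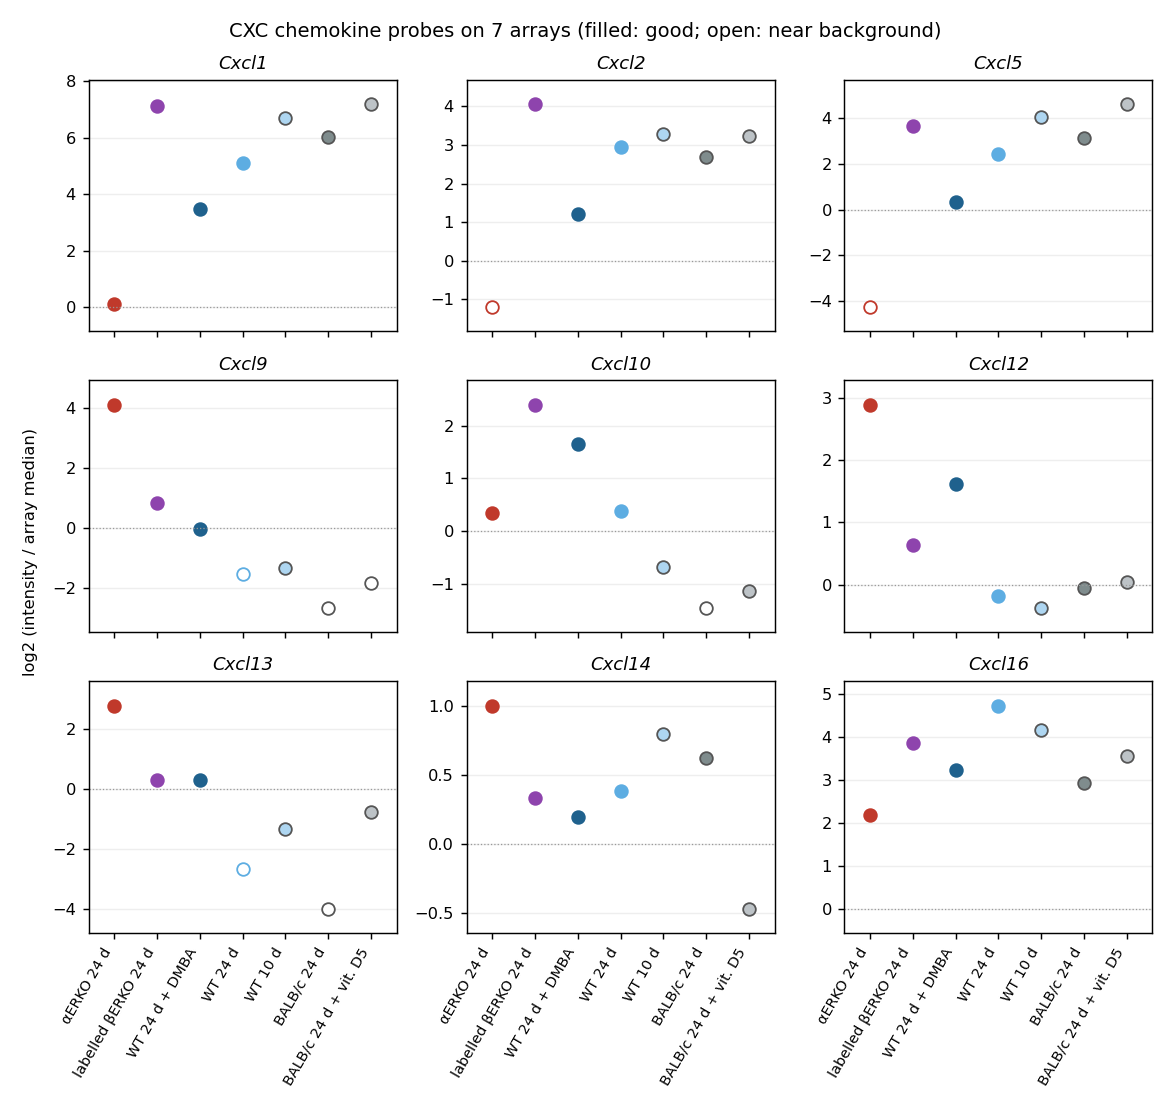
Log2 level of each of the 9 chemokine probes (intensity over the array median, vertical axis, scaled separately for each gene) on the 7 arrays (horizontal axis), 1 point per array, with open points near background. Cxcl1, Cxcl2 and Cxcl5 are lowest on the αERKO array and Cxcl9, Cxcl12, Cxcl13 and Cxcl14 are highest there.

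The αERKO array held the highest value of 4 genes (Cxcl9, Cxcl12, Cxcl13 and Cxcl14) and the lowest of another 4 (Cxcl1, Cxcl2, Cxcl5 and Cxcl16). Among the probes good on at least 1 array, 20.8% were highest and 32.1% were lowest on that array. Cxcl9, Cxcl12 and Cxcl13 did not overlap between the 3 arrays of the study, which were higher, and the 4 other arrays. Such a split towards higher values was found for 8.88% of probes, and one towards lower values for 9.63%. For Cxcl12 the study's arrays ranged from 0.63 to 2.89 and the others from -0.37 to 0.05. Genotype, strain, DMBA and time in culture differ within this split, and cannot be told apart.

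In αERKO glands against WT glands with DMBA, 8 of the 9 chemokines differed by more than 2-fold, against 25.8% of all probes tested. These glands differ in ERα, in background and in the presence of lesions, which cannot be told apart. The T cell and B cell attractants Cxcl9 and Cxcl13 and the stromal Cxcl12 were higher, and the 3 neutrophil attractants, Cxcl10 and Cxcl16 were lower. The log2 ratio was 4.14 for Cxcl9, 2.48 for Cxcl13 and 1.27 for Cxcl12, where 11.7% of probes were over 2-fold higher. It was -3.39 for Cxcl1, -1.32 for Cxcl10 and -1.06 for Cxcl16, where 14.1% were over 2-fold lower. Cxcl2 was at least 5.29-fold lower and Cxcl5 at least 3.50-fold lower, as bounds against the background of the αERKO array. Cxcl14, at 0.81, was under 2-fold. The SD between same-accession probes was 0.61 over 476 pairs here, and the median of the 9 log2 ratios was -1.06 against -0.09 for all probes tested. With the arrays scaled to their 75th percentile Cxcl16 was no longer over 2-fold, at -0.93 (-0.96 with quantile normalization), and normexp background correction, which adds an offset of 50 to every intensity, did the same for Cxcl5 (-0.92), Cxcl10 (-0.88) and Cxcl12 (0.88). With normexp the log2 ratios were nearer to 0 for Cxcl1 (-2.55), Cxcl2 (-1.10), Cxcl9 (2.99) and Cxcl13 (1.65) too, so the bounds of Cxcl2 and Cxcl5 hold for the subtracted intensities only.

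The array labelled βERKO differed from WT glands with DMBA mainly in the neutrophil attractants. Cxcl1, Cxcl2 and Cxcl5 were higher there, with log2 ratios of 3.62, 2.86 and 3.30, and these 3 were the only ones of the 9 over 2-fold, against 15.3% of probes in either direction, 6.96% towards higher and 8.37% towards lower values. The SD between same-accession probes was 0.38 over 494 pairs. The other log2 ratios were 0.88 for Cxcl9, 0.75 for Cxcl10, 0.63 for Cxcl16, 0.14 for Cxcl14, 0.003 for Cxcl13 and -0.98 for Cxcl12. With normexp Cxcl2 was at 2.28 and Cxcl5 at 2.42. The sign for Cxcl13 turned with the scaling of the arrays, and Cxcl12 was over 2-fold lower, at -1.03, with scaling to the 75th percentile. The median of the 9 was 0.75, against 0.09 for all probes tested.

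Set directly against the array labelled βERKO, αERKO glands differed over 2-fold in 8 of the 9 chemokines, against 30.1% of probes. This comparison shares its arrays with those above. Cxcl1 was 129-fold lower in αERKO glands, with a log2 ratio of -7.01. Cxcl2 was at least 38.5-fold lower and Cxcl5 at least 34.4-fold lower, and the log2 ratios of Cxcl10 and Cxcl16 were -2.06 and -1.69. Cxcl9, Cxcl12 and Cxcl13 were higher, with log2 ratios of 3.26, 2.25 and 2.48, and Cxcl14 was at 0.67. Here 13.5% of probes were over 2-fold higher and 16.6% lower, and the median of the 9 was -1.69 against -0.18 for all probes tested. The SD between same-accession probes was 0.58 over 471 pairs. Of all calls over 2-fold in this comparison 44.9% were towards higher values, and 55.8% were with scaling to the 75th percentile, which left the 8 chemokines over 2-fold and their directions as they were. Normexp left them over 2-fold too, but with log2 ratios of -5.90 for Cxcl1, -3.38 for Cxcl2, -3.34 for Cxcl5 and -1.37 for Cxcl10, and of 2.54 for Cxcl9, 1.58 for Cxcl12 and 1.66 for Cxcl13. The folds of Cxcl2 and Cxcl5 given as bounds thus apply to the subtracted intensities only.

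**Figure D2:**
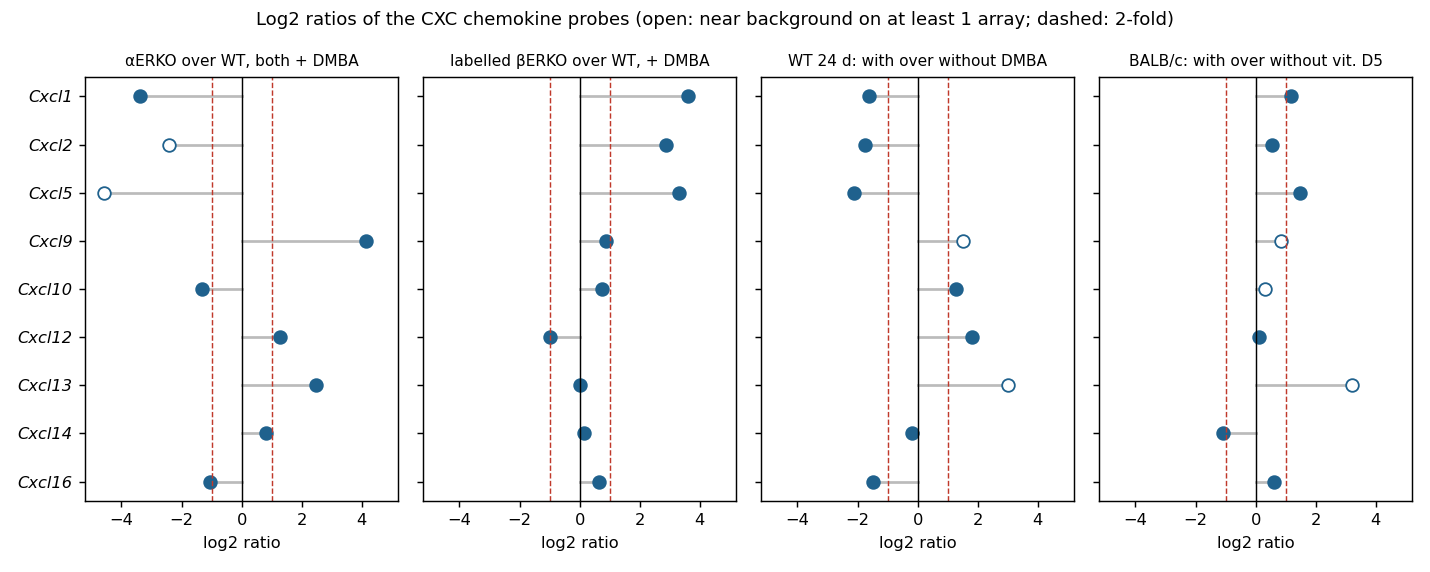
Log2 ratios of the 9 chemokine probes (horizontal axis) in 4 of the comparisons, with dashed lines at 2-fold and open points where the probe was near background on at least 1 array compared. Cxcl1, Cxcl2 and Cxcl5 lie to the left in αERKO glands and in WT glands with DMBA, and to the right on the array labelled βERKO.

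DMBA in WT glands at 24 days went with lower neutrophil attractants and higher interferon-induced, stromal and B cell chemokines, 8 of the 9 being over 2-fold against 18.6% of probes. The log2 ratio of glands with DMBA over glands without was -1.63 for Cxcl1, -1.75 for Cxcl2, -2.11 for Cxcl5 and -1.49 for Cxcl16, where 8.46% of probes were over 2-fold lower. It was 1.27 for Cxcl10 and 1.79 for Cxcl12, and Cxcl9 and Cxcl13 were at least 2.82-fold and at least 3.81-fold higher, where 10.1% of probes were over 2-fold higher. Cxcl14, at -0.19, was under 2-fold and was also the median of the 9, against -0.13 for all probes tested. This comparison shares the WT array with DMBA with those of the knockout arrays. The SD between same-accession probes was 0.31 over 481 pairs. With normexp, Cxcl9 (0.49), Cxcl10 (0.85) and Cxcl13 (0.86) were no longer over 2-fold, and Cxcl5 was at -1.43 and Cxcl12 at 1.09. The glands without DMBA have no stated pooling or settled pretreatment, which cannot be told apart from DMBA.

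In WT glands without DMBA, 24 days against 10 days, 4 of the 9 chemokines were over 2-fold against 12.4% of probes (6.05% higher and 6.34% lower), with an SD between same-accession probes of 0.24 over 474 pairs. Cxcl1 and Cxcl5 were lower at 24 days, with log2 ratios of -1.58 and -1.62, and Cxcl2 was at -0.35. Cxcl10 was higher, at 1.07, but was at 0.47 with normexp. The log2 ratios were 0.58 for Cxcl16, 0.19 for Cxcl12, -0.41 for Cxcl14 and -0.18 for Cxcl9, which was near background at 24 days. Cxcl13 was near background at 24 days and at least 1.22-fold lower there, so that its call over 2-fold rests on a value near background, and with a floor at the lowest good value it was at -0.29 (-0.23 with normexp). The median of the 9 was -0.35, against 0.09 for all probes tested. The glands at 24 days had also gone through the regression phase with insulin alone, so time and the withdrawal of the other hormones cannot be told apart.

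In BALB/c glands, vitamin D5 went with higher Cxcl1 and Cxcl5, with log2 ratios of 1.16 and 1.48, and lower Cxcl14, with -1.09. Of the 8 chemokines tested (Cxcl9 was near background with and without it), 4 were over 2-fold, against 12.2% of probes (5.12% higher and 7.06% lower), and the SD between same-accession probes was 0.23 over 479 pairs. Cxcl13 was at least 2.03-fold higher with vitamin D5. Cxcl2 was at 0.53, Cxcl16 at 0.62, Cxcl10 at 0.31 and Cxcl12 at 0.10, whose sign turned with the scaling. The median was 0.58, against 0.09 for all probes tested. Quantile normalization put Cxcl1 at 0.98, and normexp put Cxcl14 at -0.55 and Cxcl13 at 0.54, all under 2-fold.

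BALB/c glands against WT glands at 24 days, without DMBA in either title, had the neutrophil attractants under 2-fold. Of 7 chemokines tested (Cxcl9 and Cxcl13 were near background on both arrays), Cxcl16 was lower in BALB/c glands, with a log2 ratio of -1.80, and Cxcl10 was at least 3.57-fold lower. These 2 calls stand against 18.5% of probes in either direction (9.17% higher and 9.33% lower), and normexp put Cxcl10 at -0.72. The log2 ratios were 0.91 for Cxcl1, 0.68 for Cxcl5 and -0.25 for Cxcl2, of which Cxcl1 passed 2-fold with scaling to the 75th percentile (1.12) and Cxcl2 turned its sign with the scaling. They were 0.24 for Cxcl14 and 0.13 for Cxcl12, and the latter was the median of the 7, against -0.15 for all probes tested. The SD between same-accession probes was 0.33 over 476 pairs. Of all calls 49.6% were towards higher values in BALB/c glands, and 67.1% were with that scaling.

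Of the other CXC chemokines, 5 of 6 were measured, and those lying between Cxcl5 and Cxcl1 on the chromosome did not share 1 pattern with them. Cxcl15 (GE36052), known as lungkine, had log2 levels of 5.74 in αERKO glands, 3.62 on the array labelled βERKO and 4.58 in WT glands with DMBA, above the 1.03 to 2.40 of the other 4 arrays. The platelet chemokine Ppbp (GE40505) was highest in αERKO glands, at 2.68, and lay between -1.26 and 0.25 elsewhere. Pf4 (GE37705), the other platelet chemokine, was low in αERKO glands at 3.76, against 6.20 on the array labelled βERKO and 5.63 in WT glands with DMBA, and lowest in BALB/c glands at 2.29. Cxcl3 (GE1530229), a close relative of Cxcl1 and Cxcl2, was highest on the array labelled βERKO, at 0.41, and lay between -1.29 and -0.23 on the other arrays except BALB/c, where it was near background. On the αERKO array Cxcl3 stood at -1.05, with a log2 ratio to WT with DMBA of -0.30. Cxcl17 (GE137010), a mucosal chemokine, lay between 4.59 and 5.31.

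**Figure D3:**
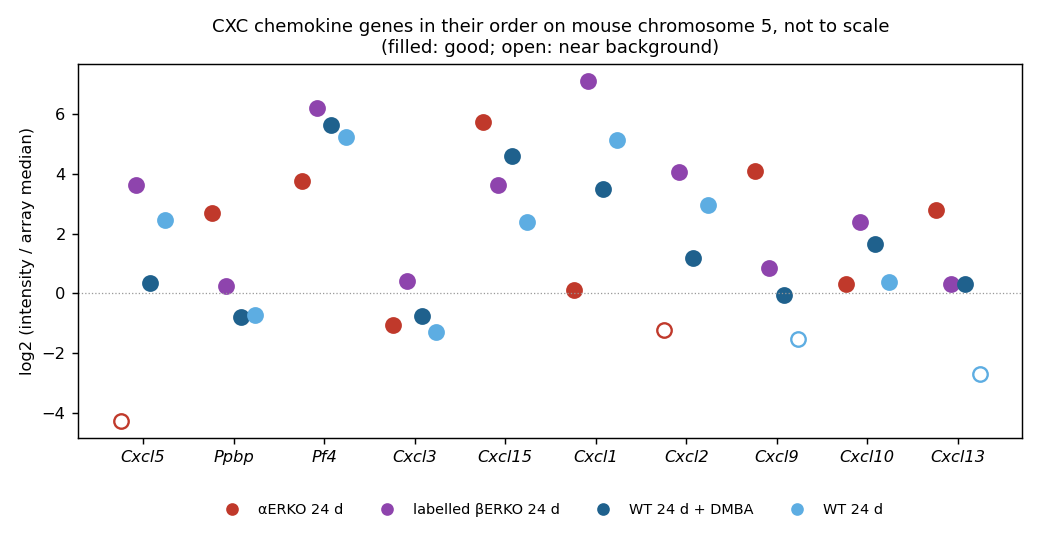
Log2 levels (vertical axis, intensity over the array median) of 10 chemokine genes in their order along chromosome 5 (horizontal axis, not to scale) on 4 of the 7 arrays, which are set side by side at each gene, with open points near background. Levels of different probes are not comparable, only the order of the arrays at each gene, which differs between neighbours. Of these 4 arrays αERKO is lowest for Cxcl5, Pf4, Cxcl1, Cxcl2 and Cxcl10 and highest for Ppbp, Cxcl15, Cxcl9 and Cxcl13. For Cxcl10 it is close to WT at 24 days (0.33 and 0.38).

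All 8 receptors on the list were measured, and of those good on all 7 arrays Cxcr4 had the widest range. Cxcr4 (GE1453040), the receptor of Cxcl12, had log2 levels of 2.23 in αERKO glands, 4.50 on the array labelled βERKO, 5.63 in WT glands with DMBA, 4.54 and 4.14 in WT glands at 24 and 10 days, 3.50 in BALB/c glands and 3.69 with vitamin D5. It was thus lowest on the array where Cxcl12 was highest, with a log2 ratio of -3.40 in αERKO against WT glands. Ackr3 (GE33511), the scavenger of Cxcl12, was highest in WT glands with DMBA, at 1.94, and lay between -0.69 and 0.57 elsewhere. Cxcr2 (GE35229), the receptor of the neutrophil attractants, lay between -1.26 and -0.07, lowest on the array labelled βERKO and highest in αERKO glands. It was near background, at -0.89, in BALB/c glands with vitamin D5. Cxcr3 (GE1499991), the receptor of Cxcl9 and Cxcl10, stayed between 3.33 and 4.22, and Cxcr5, the receptor of Cxcl13, between -0.59 and 0.57. Cxcr6, the receptor of Cxcl16, was good in αERKO glands (-0.40) and in BALB/c glands with vitamin D5 (-1.15) and near background on the other 5 arrays. The scavenger Ackr1 lay between -1.51, near background in BALB/c glands, and 0.02, and Cxcr1 was near background on all 7 arrays.

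**Figure D4:**
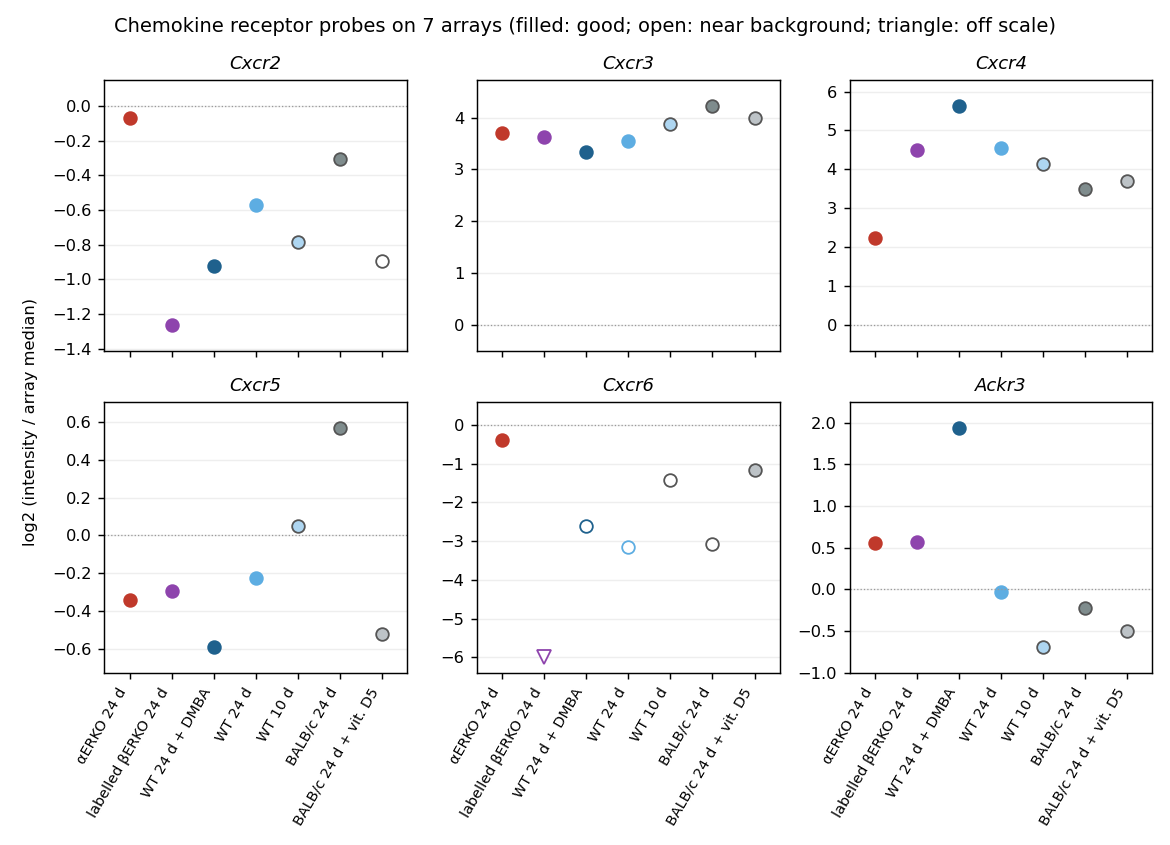
Log2 levels (intensity over the array median, vertical axis, scaled separately for each gene) of 6 chemokine receptor probes on the 7 arrays (horizontal axis), with open points near background and a triangle for the Cxcr6 value of -11.79, near background and below the axis. Cxcr4 is lowest in αERKO glands, at 2.23, and Ackr3 is highest in WT glands with DMBA, at 1.94.

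Cytokines that induce these chemokines were mostly near background. Il6, which NF-κB induces together with Cxcl1, was good on the array labelled βERKO at 2.81, where Cxcl1 was high, and near background in αERKO glands at -1.68, where Cxcl1 was low, and lay between 0.04 and 1.13 on the other 5, with an irregular spot in WT glands with DMBA. Ltb, a lymphotoxin of lymphocytes that induces Cxcl13 in lymphoid tissue, was good only in αERKO glands, at 2.47. Ifng, the inducer of Cxcl9, was good in αERKO glands at -0.45 and in BALB/c glands with vitamin D5 at -1.30, and near background on the other 5 arrays. Tnf was good on 4 arrays, between -1.05 and 0.10, and had an irregular spot in WT glands at 10 days, at 0.13. Il1b and Il17a were near background on all 7 arrays.

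Genes of the same inducing pathways were counted from lists chosen with earlier results of these data known. In αERKO against WT glands with DMBA, 4 of 13 NF-κB response genes tested were over 2-fold lower and 0 were higher, against 14.1% lower and 11.7% higher of all probes tested, with a median log2 ratio of -0.66 against -0.09 for all probes. Among them were the acute-phase gene Saa3 (-7.00), the monocyte attractant Ccl2 (-2.13) and Nfkb2 (-1.26). Of 17 interferon response genes, 7 were higher and 0 lower, with a median of 0.72, led by Ifit3 (2.64), Irf7 (1.84) and Gbp3 (1.74). On the array labelled βERKO against WT, 5 of 15 NF-κB response genes were higher and 1 lower, with a median of 0.10 against 0.09 for all probes, and the prostaglandin synthase gene Ptgs2, at 3.78, differed most. There 1 of 17 interferon response genes was higher and 4 were lower, where 6.96% of all probes were higher and 8.37% lower. With DMBA in WT glands, 7 of 17 interferon response genes were higher and 0 lower, with a median of 0.95 against -0.13, led by Iigp1 (2.25), Ifit3 (2.04) and Ifit1 (1.84). Of 14 NF-κB response genes there, 4 were higher and 2 lower, with Ptgs2 at -3.82, Saa3 at 2.36 and Vcam1 at 1.83. Over all probes tested with DMBA, 10.1% were higher and 8.46% lower.

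Markers of the cells that make or follow these chemokines also differed between the arrays. Of 8 T cell markers measured, 7 were good in αERKO glands and 5 on each of the other arrays, and their summed normalized intensity was 85.9 in αERKO glands against 10.1 to 12.6 elsewhere. Against WT with DMBA, 6 of 7 tested were higher, where 11.7% of all probes tested were over 2-fold higher and 14.1% lower. Among the 6 were Cd3d (4.72), Cd2 (4.02) and Lck (3.62). Of 10 B cell markers, all 10 were good in αERKO glands and 7 or 8 on each other array, with a sum of 33.4 against 16.5 to 19.8, and 4 of 10 were higher and 1 lower against WT with DMBA. Their median log2 ratio was 0.32, with the complement receptor gene Cr2, also expressed by follicular dendritic cells, at 3.89, the B cell linker gene Blnk at -1.44 and Cd22 at -0.87. Skeletal muscle markers, whose sum was 2307 in αERKO glands against 8.5 to 51.6 on the other arrays, moved with the same array. The part of these cells in the levels of Cxcl9 and Cxcl13 was not tested.

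Neutrophil markers, 9 of which were measured, had a summed normalized intensity of 159 in BALB/c glands with vitamin D5, 91.8 in WT glands at 10 days, 80.4 in BALB/c glands, 44.1 on the array labelled βERKO, 39.2 in αERKO glands, 27.5 in WT glands at 24 days and 24.7 with DMBA. Ltf and S100a8 were the brightest of the 9 on every array and made up most of each sum. The single genes did not share 1 order. In αERKO glands 8 of the 9 were good, against 6 or 7 on each other array. Against WT glands with DMBA, 4 of 8 tested were over 2-fold higher in αERKO glands and 1 lower, with a median log2 ratio of 0.61. Over all probes tested, 11.7% were higher and 14.1% lower. Elane (2.59) was among the higher markers and S100a8 (-1.06) was the lower one. The log2 level of Elane, at 1.69, was highest in αERKO glands, unlike those of Cxcl1, Cxcl2 and Cxcl5. Ltf, which epithelia also make, had a log2 level of 4.64 in αERKO glands, above its 4.17 on the array labelled βERKO and 3.49 in WT glands with DMBA, whereas S100a8 was lowest in αERKO glands, at 2.18, next lowest in WT glands with DMBA, at 3.24, and highest in BALB/c glands with vitamin D5, at 5.71, as Cxcl1 was. The marker Mpo was good only on the array labelled βERKO, at -1.33, but was brighter, at 0.28, with an irregular spot in BALB/c glands. Retnlg was good only in αERKO glands, at 0.81. Macrophage markers summed to 689 in WT glands with DMBA against 125 to 241 on the other arrays. Against WT glands without DMBA, 6 of 7 of them were higher, with C1qc at 3.09, where 10.1% of all probes were. In comparison with WT glands with DMBA 6 of 7 were lower in αERKO glands, where 14.1% of all probes were. On the array labelled βERKO 5 of 7 were lower, where 8.37% of all probes were.

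The sum of the fibroblast markers moved with Cxcl12 on the arrays of the study. Its value was 421 in αERKO glands, 217 in WT glands with DMBA, 69.3 on the array labelled βERKO and between 14.5 and 47.5 on the other 4. This is the order of Cxcl12 among the 3 arrays of the study, and the adipocyte sum given below shares it. Not every fibroblast marker had this order, Pdgfrb being at 3.59 in WT glands with DMBA and 3.41 in αERKO glands. With DMBA in WT glands 8 of 10 fibroblast markers were higher, with Col3a1 at 4.56, Lum at 4.30 and Dcn at 4.26. Over all probes tested, 10.1% were over 2-fold higher and 8.46% lower with DMBA. On the array labelled βERKO against WT 6 of 10 fibroblast markers were lower, with Col3a1 at -2.53, where 8.37% of all probes were. Luminal epithelial markers went the other way, with sums of 593 and 686 in αERKO glands and in WT glands with DMBA against 1058 to 1482 on the other 5 arrays, and 6 of 10 were lower with DMBA, among them Cldn4 (-2.69). Endothelial and adipocyte markers were also higher on the study's arrays. The endothelial sum was 117.7 in αERKO glands, 134.7 in WT glands with DMBA and 54.0 on the array labelled βERKO against 13.5 to 33.1 elsewhere, and the adipocyte sum was 3409, 2219 and 1786 against 319 to 1216. With DMBA in WT glands 9 of 9 endothelial markers, led by Kdr (3.51), and 6 of 8 adipocyte markers, led by Retn (3.15), were higher. The part of the cell types in the chemokine levels was not tested.

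The summed intensity of 7 myoepithelial markers was lowest in αERKO glands, at 140.1, and lay between 289.7 and 839.5 on the other arrays, highest in BALB/c glands with vitamin D5. Their median log2 level, at 4.62 in αERKO glands, was lower on the array labelled βERKO (4.31) and in WT glands without DMBA at 24 days (4.00). The basal keratin gene Krt5 had log2 levels of 5.16 in αERKO glands, 7.10 on the array labelled βERKO, 6.43 in WT glands with DMBA, 7.07 and 8.71 in WT glands at 24 and 10 days, 8.43 in BALB/c glands and 8.82 with vitamin D5, so that αERKO was lowest and WT with DMBA next, as for Cxcl1, Cxcl2 and Cxcl5. Krt14 and Krt17 shared these 2 lowest places. Acta2, Myh11 and Cnn1 did not, being highest in WT glands with DMBA, at 6.68, 5.00 and 5.79. Trp63 was lowest in αERKO glands, at 2.40, but next lowest in WT glands without DMBA at 24 days, at 2.90. In αERKO against WT glands 5 of the 7 markers were lower and 0 higher, with Krt17 at -2.91 and Krt14 at -2.42, where 14.1% of all probes were lower and 11.7% higher. On the array labelled βERKO against WT 2 were higher, Krt17 (2.21) and Krt14 (1.35), and 2 were lower, where 6.96% and 8.37% of all probes were. The lower ones were Cnn1 (-1.48) and Myh11, whose spot on the array labelled βERKO was flagged and not good, so that its call is not reliable. With DMBA in WT glands 3 of the 7 markers were higher and 2 lower, where 10.1% and 8.46% of all probes were. Their part in the levels of Cxcl1, Cxcl2 and Cxcl5 was not tested.

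Proteases that cut chemokines were counted too. In αERKO against WT glands, 5 of 6 were lower, where 14.1% of all probes were, and the other, the dipeptidyl peptidase gene Dpp4, which trims Cxcl9, Cxcl10 and Cxcl12, was at least 5.74-fold higher, being near background in WT glands. Among the lower were the neutrophil collagenase gene Mmp8 (-2.49) and the sheddase genes Adam10 (-1.78) and Adam17 (-1.63), which release Cxcl16 from the membrane and which were lower together with Cxcl16 itself. On the array labelled βERKO 1 of 6 was higher than in WT glands and 0 were lower, where 6.96% and 8.37% of all probes were.

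The genes most like each chemokine over the 7 arrays were named for the 4 chemokines whose probe was good on all of them, among 4943 genes good on all 7 arrays with a range of at least 1. Nearest to Cxcl1 were the acyl-CoA thioesterase Acot7, the phosphatase Dusp8 and the dioxin-inducible cytochrome Cyp1b1, each with r = 0.99, and 0.98, 0.98 and 0.95 without the αERKO array. Cyp1b1, which metabolizes DMBA, ranged from 2.13 in αERKO glands to 7.47 in WT glands at 10 days. Nearest to Cxcl12 were the sperm-egg fusion family gene Izumo4 (r = 0.997), the CC chemokine Ccl4 (0.99) and the cytochrome c oxidase subunit Cox4i2 (0.99). Nearest to Cxcl16 were the mitochondrial ribosomal gene Mrps26 (0.998), the methionine aminopeptidase Metap1 (0.993) and the aldehyde dehydrogenase Aldh3a2 (0.993). Nearest to Cxcl14 were the olfactory receptor genes Olfr805 (0.98) and Olfr806 (0.92) and the sodium pump subunit gene Fxyd2 (0.88). With 7 arrays of different strains, times and treatments these are descriptions without a test.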

How the data were processed

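Total RNA of mouse mammary glands was hybridized by the authors to CodeLink Mouse Whole Genome arrays, 1 colour and 1 array per group. Spot intensity was deposited as mean brightness after subtraction of the median local background, along with a quality call from the scanner software. Since the authors scaled to the array median and used a 2-fold limit, each intensity was divided by the median of the 34967 gene probes of its array, leaving out 620 control spots. Negative and zero values were set to the smallest positive value of the array before log2. A probe was tested in a comparison if either spot was good. Where 1 spot was near background, the fold is a bound, computed with the dim value or, if higher, the dimmest good value of that array. Since groups hold 1 array each, nothing was tested, and the number of arrays limits the precision. RefSeq (GRCm38.p6) named 14763 of 15553 probes with its accessions. The chemokines and all gene lists were chosen with earlier results of these data known. Genes named are the 9 chemokines, members of the lists of other CXC chemokines, receptors, inducing cytokines and targeted receptors, the 3 of each other list with the largest ratio among probes good on both arrays, and the 3 most correlated with each chemokine good on all 7 arrays. Krt8, Epcam, Mpo and Retnlg are named as markers outside this rule. Of several probes for a gene, the brightest on average was used. The deposited series table was not used, since its rows name no probe. Alternatives are named beside a chemokine's ratio where they change a call or move it by over 1.5 times. The counting was tested on simulated data. Python 3.11.15, pandas 2.3.3, numpy 2.4.6, R 4.3.3 and limma 3.58.1 (normexp, with an offset of 50) were used.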

Additional observations from a re-analysis of the deposited data

How the results depend on the processing

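Over 378 log2 ratios of the 9 chemokines under 6 alternatives of scaling, background, values, floor and probe, 338 stayed within the SD between same-accession probes and 40 moved by more, and 0 of those over 2-fold changed sign. Of the 40, 30 were with normexp, 8 with a floor at the lowest good value and 2 with quantile normalization. Under normexp, the number of chemokines over 2-fold was 5 in αERKO against WT glands (8 before), 5 in WT glands with against without DMBA (8 before), 2 in WT glands at 24 against 10 days (4 before), 2 for vitamin D5 (4 before) and 1 in BALB/c against WT glands (2 before). Calls over all probes fell as well. For αERKO against WT, 1002 were higher and 1632 lower (3246 and 3923 before), and for DMBA 1057 and 446 (2822 and 2353 before). They were 171 and 284 for time (1643 and 1724 before) and 110 and 67 for vitamin D5 (1454 and 2007 before). In BALB/c against WT glands they were 293 and 507 (2574 and 2618 before). At a 3-fold threshold the counts of chemokines were 5 for αERKO against WT, 5 for DMBA, 1 for time and 1 for vitamin D5. In the same order, 1848 of all probes were higher and 1837 lower, 1346 and 898, 808 and 734, and 666 and 1205. At 1.5-fold they were 7 on the array labelled βERKO against WT (3 before) and 4 in BALB/c against WT glands. For the latter, requiring a good spot on both arrays gave 1, and no filter gave 4. The other 60 counts of chemokines were within 1.5 times the first value, among them all counts of αERKO glands against the array labelled βERKO. The mean over probes changed nothing, since each chemokine has 1 probe. The deposited normalized intensities gave the same ratios as the first scaling and so changed nothing either. Each of these alternatives accounts for 63 of the 338 ratios that stayed, which is no check of them. The cause was not tested. No paired analysis was possible because each group has 1 array, and for the same reason no array could be left out within a group.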
